A study of Mus musculus with 6 samples.

Results

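Wild-type mouse embryonic stem cells were described here from the 2 arrays that carry the wild-type label, of 6 arrays in the series. Embryonic stem cells are lines derived from the inner cell mass of the early embryo. The RNA was total RNA from cells in exponential growth, labelled with biotin and hybridised to Affymetrix arrays. The cells are labelled wild type for the 3 linker histone genes deleted in the other lines, and no strain, treatment or feeder layer is stated in the labels used here. The other 4 arrays, used for comparison and in the choice of a probe set for each gene, hold 2 arrays from each of 2 embryonic stem cell lines that lack H1c, H1d and H1e (now H1f2, H1f3 and H1f4). Each null line is a line of its own, the labels do not tell whether it is 1 clone, and they leave unsaid whether its arrays were made from different cultures. The spread between arrays may therefore be technical.

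Embryonic stem cells divide rapidly, with a short G1 phase and a large demand for new ribosomes, proteins and DNA. Their undifferentiated state is held by a network of transcription factors around Pou5f1 (Oct4), Sox2 and Nanog, which bind together at many of the genes active in these cells. Leukaemia inhibitory factor, acting through Stat3, and bone morphogenetic protein, acting through Smad proteins and the Id genes, are the classical signals that hold mouse lines in this state.

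Each array gives 1 signal, in intensity units on a linear scale, for each of 12488 probe sets, of which 66 are controls. Of the 12422 others, 10833 name 1 gene, and these stand for 8251 genes, each represented by its brightest own probe set over the 6 arrays. Choosing it on the wild-type arrays alone, a setting added after the data were seen, gave 80 genes another probe set and 11 of them another class. The background level came from 19 controls, of bacterial and yeast sequence, whose RNA is not in mouse cells and was not added as a hybridisation spike. Their highest signal was 9.2 on wild-type array 1 and 17.2 on array 2, while their medians were 2.6 and 4.7. A probe set was called abundant when its mean was in the top 10% (314 units or more) and both arrays exceeded background, and moderate when both arrays exceeded background below that level. A signal depends on the probes as well as on the transcript, so the ranks below order signals and not transcript numbers.

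In wild-type cells 1242 probe sets were abundant, 6733 moderate, 1154 above background on 1 of the 2 arrays and 3293 at background on both. Counted by gene, 1001 of 8251 (12.1%) were abundant and 5953 (72.1%) exceeded background on both arrays, whereas 1600 (19.4%) did so on neither. Signal was concentrated in few probe sets. The brightest 1% (124 probe sets) held 21.4% of the summed signal, the abundant class 60.6%, and 760 probe sets together held 50%. The median signal was 36.5 units on array 1 and 39.8 on array 2, and the highest 5592 and 6500.

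**Figure D1:**
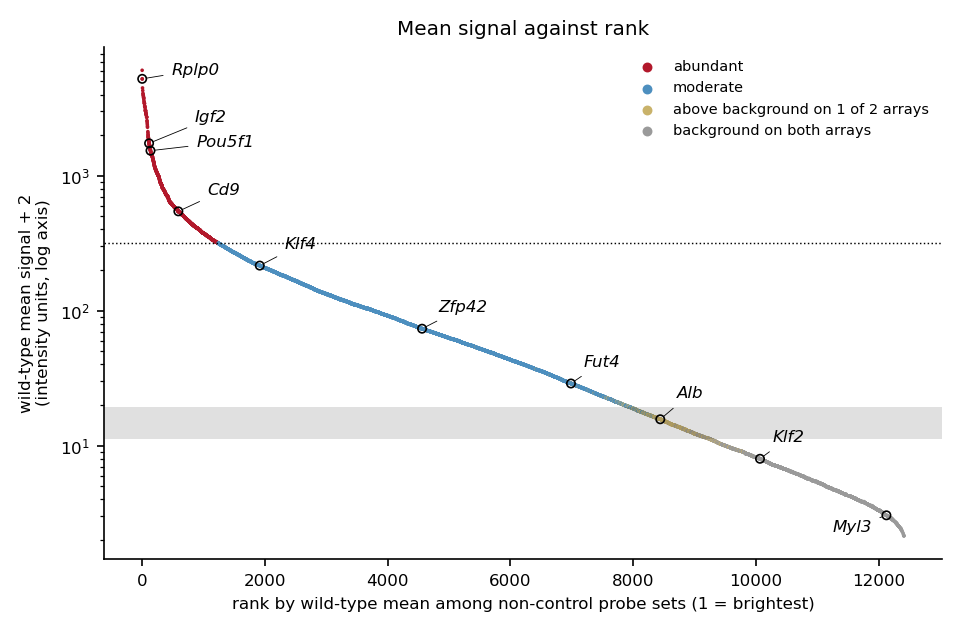
Wild-type mean signal plus 2 (intensity units, log axis) of each of the 8251 genes against its rank among the 12422 non-control probe sets, coloured by class. The dotted line is the abundant level of 314 units and the grey band spans the background levels of the arrays, 9.2 and 17.2 units; the circled genes run from Rplp0 at rank 2 through Zfp42 at rank 4562 to Myl3 at rank 12128.

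The wild-type arrays gave nearly the same order. The log2 signals of the 2 arrays correlated with r = 0.976 across probe sets, and probe sets do not count as independent replicates. Of the 100 brightest probe sets of each array 97 were shared, and of the 1000 brightest 939. The typical difference between the arrays shrank with signal. The median fold between arrays was 1.07 in the abundant class, 1.14 in the moderate class and 1.33 among probe sets at background on both, where r was 0.632. A level near background on 2 arrays is thus not ordered reliably. Array 1 also placed more probe sets above its background than array 2 did, 8986 against 8118. Its background level was lower, 9.2 against 17.2 units, although its median signal was lower too, 36.5 against 39.8. Of the 1154 probe sets above background on 1 array only, 1011 were above it on array 1. Some of these were no brighter on array 1 than on array 2.

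**Figure D2:**
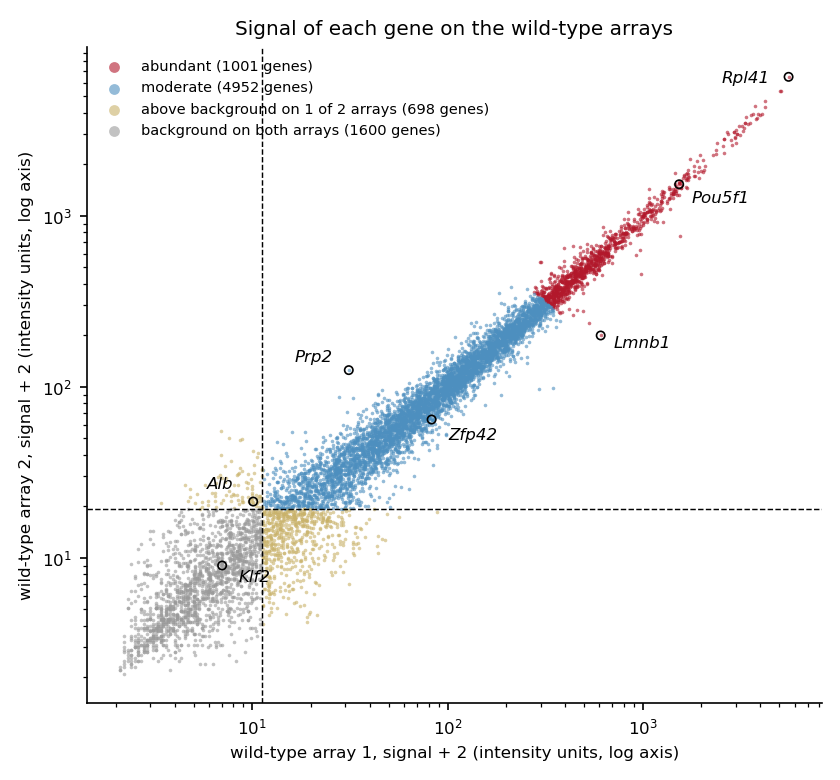
Signal plus 2 of each gene on wild-type array 1 (x) and array 2 (y), in intensity units on log axes, coloured by class, with the background level of each array as a dashed line. Genes of the abundant class lie close to the diagonal, except a few such as Lmnb1 (607.4 and 197.5 units), and the cloud widens towards background.

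The largest differences between the arrays among genes above background on both were found mainly for dim probe sets. Prp2 measured 29.2 and 123.1 units, a log2 difference of 2.0, and Ifna9, an interferon alpha gene, 11.4 and 45.4. Zfr2, Pdyn, Eya3, St8sia5 and Lbp were also brighter on array 2, by 1.55 to 1.78 on the log2 scale. Bright exceptions ran the other way. Lmnb1, which encodes lamin B1 of the nuclear envelope, measured 607.4 on array 1 and 197.5 on array 2, and Dynll2, a dynein light chain, 343.6 and 95.8. Tmed9, of the early secretory pathway, measured 291.5 and 94.8. Levels of these genes are uncertain by the size of these gaps.

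The brightest gene of wild-type cells was Rpl41, a protein of the large ribosomal subunit, with 5591.8 and 6499.6 units on the 2 arrays (mean 6046 ± 642, SD, n = 2). Rplp0, the stalk protein of the large subunit, followed with 5099.5 and 5348.8. Eef1a1, the elongation factor that brings aminoacyl-tRNA to the ribosome, measured 5041.5 and 5378.5. The signals of Rplp0 and Eef1a1 overlapped across the arrays, so their order is not resolved, while both arrays of Rpl41 lay above them. Of the 30 brightest genes 15 encode ribosomal proteins, among them Rps28, Rps24, Rps18, Rpl7, Rpl8, Rps3a1 and Rps10, and 27 belong to a list described below. The rest of the 30 include genes of translation, RNA binding, the cytoskeleton, nuclear transport and glucose use. Tpt1, the translationally controlled tumour protein, measured 4257.8 and 4688.4, and Ybx1, a Y-box protein that binds mRNA, 4096.3 and 3950.7. Tuba1c (3667.4 and 3958.7) and Tubb5 (3290.4 and 3277.1) are tubulins, and Actg1 (3572.9 and 3870.1) is a cytoplasmic actin. Ran, the GTPase of nuclear transport, measured 3527.4 and 3496.3, Npm1, the nucleolar chaperone nucleophosmin, 3220.8 and 3341.3, and Hmgn1, a nucleosome-binding protein, 3163.5 and 2969.5. The glycolytic enzyme Pkm (2996.6 and 3159.8), the heat shock protein Hsp90aa1 (2943.9 and 3098.7) and the glucose transporter Slc2a3 (2920.5 and 3089.9) were as bright. The arrays differed by at most 1.18-fold over these 30 genes, and the dimmest of them, Gm15772, had a mean of 2903.

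Bright probe sets are often shared between genes. Of the 100 brightest, 52 name 1 gene, 34 name several and 14 carry no gene name, and 39 list a ribosomal protein gene. Several-gene probe sets make up 7.81% of the abundant class but 2.55% of the moderate class. Such probe sets were left unnamed, so the account of the brightest genes is not complete.

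The pluripotency factors were among the bright genes. Pou5f1, the POU-domain factor of the pluripotent state, measured 1536.3 and 1527.2 units (mean 1532 ± 6.43, SD, n = 2) and ranked 137 of 12422. Sox2, its partner on DNA, measured 1354.5 and 1465.7 and ranked 159. The Sox2 probe set carries a suffix (_r_at) of those that may be shared with other sequences or lack some probe pairs. Nanog, a homeodomain factor of the same network, measured 1291.1 and 1374.1 and ranked 175. All 3 markers exceeded background by a wide margin on both arrays and lay in the abundant class. The fourth marker, Zfp42 (Rex1), a zinc finger protein of undifferentiated cells, was moderate, with 80.9 and 62.3 units and rank 4562. Each probe set reads only its own target, so the lower signal of Zfp42 does not order its transcript number against that of Pou5f1. All 4 markers fixed for pluripotent cells were thus above background on both arrays.

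Of 18 measured pluripotency transcription factors, 6 were abundant, 9 moderate, 2 above background on 1 array and 1 at background. The abundant ones beside the 3 markers were Mybl2, a cell cycle factor of the MYB family (541.7 and 607.6 units), Utf1, a chromatin-bound factor of embryonic stem cells (478.5 and 452.9), and Klf5, a Krüppel-like factor (372.4 and 271.1). The arrays of Klf5 fell on either side of the abundant level of 314. Moderate members included Mycn, Tfcp2l1, Sall4, Klf4, Nr0b1, Nr5a2, Gbx2 and Esrrb, which spread from 290 for Mycn down to 35.5 for Esrrb. The dim members were few. Tbx3 measured 23.1 and 16.2 and Foxd3 12.1 and 7.6, each above background on array 1 only. Klf2, a Krüppel-like factor that acts beside Klf4 and Klf5, read 5.0 and 7.0, at background on both arrays.

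Markers of embryonic stem cells beyond these factors exceeded the bacterial and yeast controls without exception. All 21 measured genes exceeded this background on both arrays, against 72.1% of all genes, and 6 were abundant, 28.6% against 12.1%. The highest antisense control, a stricter level described below, was exceeded on both arrays by 19 (90.5%), against 49.1% of all genes. Dppa5a, an RNA-binding protein of the early embryo and germ line, was the brightest, with 2595.9 and 2335.6 units. Cd9, a tetraspanin of the cell surface, measured 568.3 and 517.3, and Dppa4, a chromatin protein of pluripotent cells, 493.7 and 463.4. Jarid2, Lefty1 and Phc1 were also abundant. Fut4, a fucosyltransferase gene, was the dimmest at 26.2 and 27.6 units, above both background levels but under the highest antisense control. Lefty1, a Nodal antagonist, differed most between arrays among the 6 abundant ones, with 495.9 and 388.7.

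**Figure D3:**
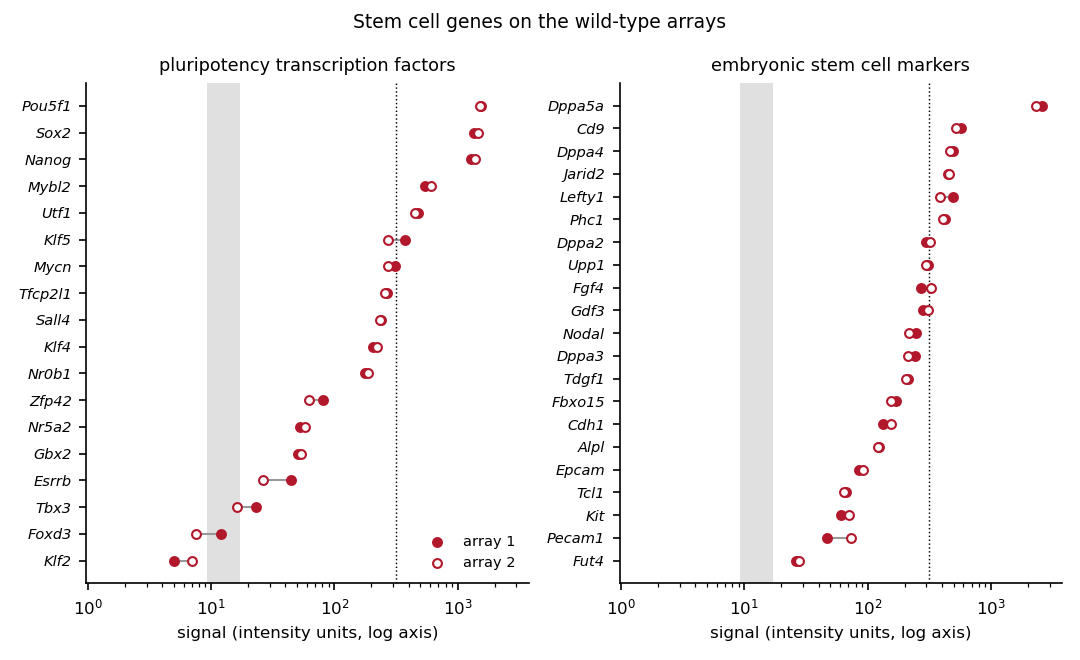
Signal (intensity units, log axis) of each measured pluripotency transcription factor (left, 18 genes) and embryonic stem cell marker (right, 21 genes) on wild-type array 1 (filled) and array 2 (open), joined by a line. The grey band spans the background levels of 9.2 and 17.2 units and the dotted line marks the abundant level of 314; Pou5f1, Sox2, Nanog and Dppa5a stand far to the right, and Klf2 lies left of the band.

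Promoter sequences were set beside these signals. Vertebrate promoters fall broadly into those rich in the dinucleotide CpG, typical of genes used in most cells, and those poor in it, typical of genes restricted to a tissue. In RefSeq sequences (GRCm38.p6) of 300 bases, from 250 before to 50 after the first listed start of a gene, the CpG count was divided by that expected from the C and G content. The stretch from 100 bases before to 20 after the start is shown for 3 genes with abundant signal and 2 with background signal, chosen after their values were seen, with each CG in capitals. Rplp0 (chr5:115559367-115559486, plus strand) and Sox2 (chr3:34649895-34650014, plus strand) show many, Nanog (chr6:122707389-122707508, plus strand) few, Lyz2 (chr10:117282253-117282372, minus strand) and Myl3 (chr9:110763578-110763697, plus strand) none.
Rplp0: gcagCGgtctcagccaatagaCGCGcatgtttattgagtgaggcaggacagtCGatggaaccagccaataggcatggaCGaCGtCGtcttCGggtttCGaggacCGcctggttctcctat
Sox2: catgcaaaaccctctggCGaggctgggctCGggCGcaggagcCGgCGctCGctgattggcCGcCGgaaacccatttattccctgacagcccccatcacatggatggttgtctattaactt
Nanog: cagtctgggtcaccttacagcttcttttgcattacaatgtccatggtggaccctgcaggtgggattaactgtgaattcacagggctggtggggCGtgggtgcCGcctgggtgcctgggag
Lyz2: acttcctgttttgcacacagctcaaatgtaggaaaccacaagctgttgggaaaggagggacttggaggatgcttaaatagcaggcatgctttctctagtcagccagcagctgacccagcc
Myl3: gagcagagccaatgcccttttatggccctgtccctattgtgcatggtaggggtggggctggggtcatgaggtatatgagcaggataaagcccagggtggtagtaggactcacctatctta
The ratio over the whole 300 bases was 0.93 for Rplp0, 0.82 for Sox2, 0.19 for Nanog, 0.07 for Lyz2 and 0.04 for Myl3. Lyz2, a lysozyme of macrophages, measured 1.0 and 1.7 units, and Myl3, a myosin light chain of heart and slow muscle, 0.9 and 1.2. Nanog thus combined an abundant signal with a CpG-poor promoter, and so did Pou5f1, whose ratio was 0.37.

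By class, 832 of the 1001 abundant genes (83.1%) and 3978 of the 4952 moderate genes (80.3%) had a promoter in the table. The median CpG ratio was 0.85 for abundant and 0.76 for moderate genes, against 0.39 over all 27025 promoters of the table. A ratio over 0.6 was found in 84.7% of abundant, 71.7% of moderate and 36.4% of all promoters. GGGCGG, the GC box, on either strand in the 250 bases before the start was found in 65.9%, 60% and 32.9% respectively. TATAAA on the coding strand from 40 to 16 bases before the start was found in 1.8% of abundant, 2.04% of moderate and 2.22% of all promoters. CCAAT on either strand was found in 39.8%, 35.7% and 34.5%. The same check is void for the 2 dimmer classes, because 77.2% of genes at background and 75.5% of those above it on 1 array had a promoter in the table, under the 80% required. It is void for all measured genes together as well, at 79.7%. The comparison was therefore with all promoters of the table, which include those of many genes not measured here. Being on the array and being bright are not told apart in it. These are descriptions of sequence, and a match is not a bound site.

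Promoter content also differed between the gene lists. The median ratio was 1.02 for RNA processing genes, 0.92 for chromatin factors and 0.86 for mitosis genes. It was 0.25 for muscle and heart markers, 0.24 for liver markers and 0.18 for markers of pancreas, gut and skin, and TATAAA stood in 20.8%, 21.4% and 40% of these. The 15 pluripotency factors with a promoter lay between, at 0.62, as did mesoderm and primitive streak markers, at 0.61, and trophoblast markers, at 0.52. Among mitosis genes CCAAT was found in 79.2%, against 34.5% of all promoters. Of 8 linker histone genes 50% had TATAAA and 87.5% CCAAT.

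**Figure D4:**
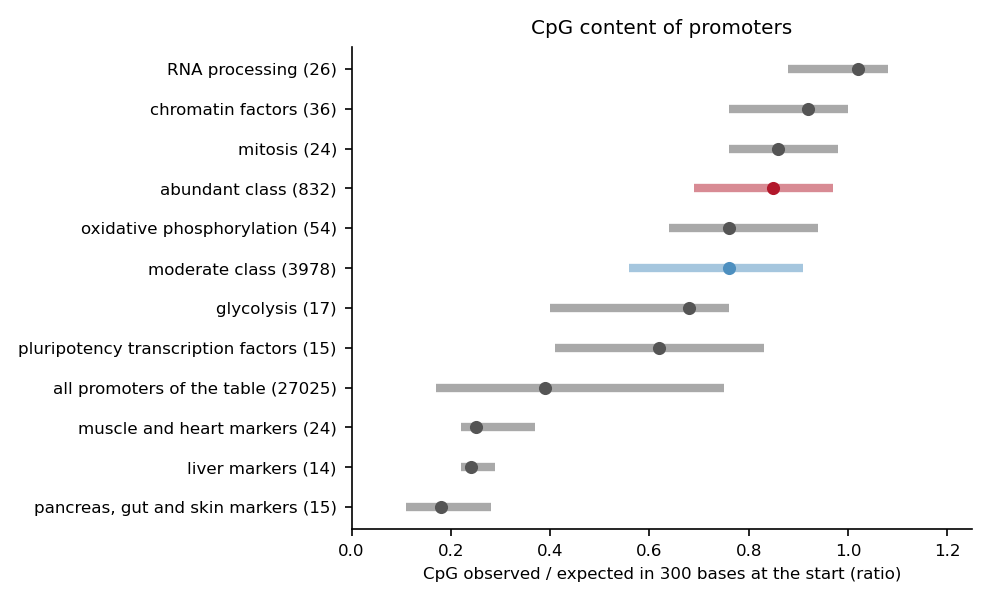
CpG observed over expected (ratio) in 300 bases of RefSeq promoter, as the median (point) and the interquartile range (bar). Rows are the abundant and moderate classes, all promoters of the table and a selection of the lists with at least 80% of genes matched. The number of genes is in brackets. Mesoderm and trophoblast markers, with medians of 0.61 and 0.52, are among the lists not drawn. The abundant class has a median of 0.85 and the liver, muscle and pancreas, gut and skin lists have medians of 0.18 to 0.25.

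Genes of signalling pathways that act on the undifferentiated state, including members that restrain a pathway, were mostly moderate. Of 60 measured genes in 4 lists, 5 were abundant and 53 (88.3%) exceeded background on both arrays. The highest antisense control, described below, was exceeded on both arrays by 36 (60%), against 49.1% of all genes. The share was lower for ligands, 4 of 11 (36.4%), and for receptors, 7 of 17 (41.2%). Among ligands Igf2, a fetal growth factor expressed from the paternal allele, stood far above the rest with 1713.7 and 1762.9 units. Igf1 followed with 148.0 and 171.7, then Wnt3 with 101.1 and 104.0 and Bmp4, a bone morphogenetic protein, with 97.0 and 97.7. Wnt5a read 5.6 and 14.3, at background on both arrays. Igf2 was the only abundant member of the 11 ligands measured.

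No receptor reached the abundant class, and 13 of 17 were moderate. The brightest were Acvr2b, an activin receptor (198.0 and 229.7 units), Igf1r, the IGF receptor (198.4 and 226.2), and Fgfr1, a fibroblast growth factor receptor (137.4 and 159.7). The chains of the leukaemia inhibitory factor receptor, Lifr (55.4 and 62.5) and Il6st (67.6 and 75), were moderate. On array 1 Lifr lay just under the highest antisense control (55.7). Acvr1b was above background on array 1 only, with 30.7 and 10. Insr, Acvr1 and Fgfr4 were at background, and Fgfr4 was the dimmest with 2.8 and 5.1.

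Of 20 transducers, 2 were abundant and 17 moderate. Ctnnb1, the beta-catenin of Wnt signalling and adherens junctions, measured 1125.9 and 1096.3, and Gsk3a, a kinase that restrains it, 1048.7 and 1056.7. Shc1, an adaptor of receptor tyrosine kinases, measured 235.9 and 289.6. Stat3, the effector of leukaemia inhibitory factor, measured 214.4 and 232.6. Ptpn11, the phosphatase Shp2, was the exception among 20 at 7.5 and 3.4, background on both. All 12 measured targets of these pathways exceeded background on both arrays. Id2, a target of bone morphogenetic protein signalling, measured 407.6 and 436.0, Socs2, a feedback inhibitor of cytokine receptors, 398.6 and 343.4, and Dusp6, a phosphatase induced by ERK signalling, 285.3 and 282.1. Id4 was the dimmest at 29.4 and 30.4. Socs3, the feedback inhibitor induced by Stat3, measured 98.3 and 96.8 and is named for its role, after its values were seen.

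Most genes of growth and basic metabolism were abundant. Of 280 genes in 9 lists, 179 (63.9%) were abundant, against 12.1% of all genes, and 262 (93.6%) exceeded background on both arrays. By list, 22 of 29 chaperones, 28 of 37 proteasome subunits, 20 of 28 RNA processing genes and 20 of 29 cytoskeletal genes were abundant. So were 20 of 33 ribosomal proteins, 11 of 18 glycolysis genes, 37 of 65 subunits of oxidative phosphorylation, 14 of 25 translation factors and 7 of 16 genes of ribosome assembly. Every list had a median above that of all genes, which sat above 58.1% of probe sets.

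Among chaperones Hspa8, a constitutive heat shock protein 70, measured 2406.8 and 2658.4 units and Hspd1, the mitochondrial chaperonin, 1860.2 and 1709.1. Among proteasome subunits Psma3 measured 1674.0 and 1750.5, Psmb4 1564.9 and 1450.1 and Psma2 1478.9 and 1391.5, all parts of the catalytic core particle. The immunoproteasome subunits, which interferon gamma induces, were all moderate. Psmb8 measured 74.8 and 86.9, Psmb9 16.4 and 38.6, and Psmb10 163.4 and 136.6. Psmd2 (10.3 and 18.8) was the dimmest subunit, and Psmc4 (15.5 and 13.7) was above background on array 1 only.

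In RNA processing, Srsf2, a splicing factor of the SR family, measured 2027.3 and 1794.2 units and Snrpb, a core protein of spliceosomal snRNPs, 1951.8 and 1658.4. The dimmest, Snrpb2, measured 54.9 and 56.3, so no member fell to background. In ribosome assembly Ncl, nucleolin, measured 2725.4 and 3010.6 and Nhp2, of the box H/ACA particles, 1438.7 and 1342.5, while Wdr12 was the dimmest at 15.3 and 22. Pabpc1, the poly(A)-binding protein, measured 2607.2 and 2809.7 among translation factors.

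Glucose use was represented by Pkm and Slc2a3, given above, and by Hk1, a hexokinase, with 2614.6 and 2821.0 units. All 18 glycolysis genes exceeded background. Eno2, the neuronal enolase, was the dimmest with 19.2 and 33.3. In oxidative phosphorylation Atp5a1, a catalytic subunit of ATP synthase, measured 1538.5 and 1567.0, Cox6c, of cytochrome oxidase, 1458.2 and 1533.0, and Ndufa7, of complex I, 1386.6 and 1271.7. Cox6a2, the heart and skeletal muscle isoform of a cytochrome oxidase subunit, was the dimmest of the 65 at 4.6 and 8.5, and Cox8a (6.7 and 8.3) and Cox5a (3.4 and 10.9) were at background as well.

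Some genes that growing cells need were among those without a signal above background. Of the 33 ribosomal protein genes on the list, not all of which need be used in these cells, 4 were at background on both arrays. They were Rpl35a (5.7 and 7.7 units), Rpl32 (5.0 and 7.6), Rps15 (2.6 and 8.9) and Rps27l (1.8 and 4.1). A further 4 were above background on array 1 or array 2 only, namely Rps14, Rps20, Rpl39 and Rpl38. Calr, the chaperone calreticulin, read 0.6 and 1.8, Eef1g, an elongation factor subunit, 2.2 and 2.2, Eif4h 4.2 and 4.2, Mcm6, a replicative helicase subunit, 3.9 and 6.2, and Myl6, a nonmuscle myosin light chain, 7.5 and 6.7. The other measured subunits of the helicase were abundant, with Mcm5 at 624.0 and 856.4 and Mcm3 at 641.1 and 645.7. A probe set at background therefore does not show that the transcript is missing.

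Probe sets of the same gene also disagreed. Of 2073 genes with 2 or more own probe sets, 919 (44.3%) had all of them in 1 class, and 78 (3.76%) had both an abundant and a background one. The median fold between the brightest and the dimmest was 3.68. For Igf2 the brighter probe set measured 1713.7 and 1762.9 and the other 2.1 and 3.3. For Pou5f1 they measured 1536.3 and 1527.2 against 11.4 and 14.9, and for Nanog 1291.1 and 1374.1 against 170.6 and 131.1. The own probe sets of Actb, beta-actin, reached 312.1 and 258.6, whereas the array's 3' control probe set for that gene read 4335.8 and 4401.2. Levels given here are those of the brightest probe set, and the choice is part of the result.

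Cell cycle genes were detected nearly throughout. Of 64 genes of DNA replication and mitosis, 62 (96.9%) exceeded background on both arrays and 26 (40.6%) were abundant. Pcna, the sliding clamp of DNA polymerases, measured 1026.6 and 1012.5 units. Cdc20, an activator of the anaphase-promoting complex, measured 1254.8 and 1108.3, Stmn1, a microtubule regulator, 1109.3 and 1067.1, and Ccnb2, a mitotic cyclin, 845.1 and 877.6. Cenpe, a kinetochore motor, was the dimmest of the mitosis genes at 10.9 and 7.7, above background on array 1 only.

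The G1 regulators were more mixed, with 5 of 21 abundant and 12 moderate. Cdk4, a kinase of G1, measured 985.5 and 965.5, Tfdp1, the partner of E2F factors, 719.1 and 778.9, and Ccnd3, a D-type cyclin, 397.3 and 346.8. The other abundant members were Ccne1, cyclin E1 (364.1 and 350.7), and Mdm2, the ligase that restrains p53 (379.0 and 309.0). Ccnd2 (13.1 and 6.6) and Ccne2 (15.7 and 10.2) were above background on array 1 only. Cdkn1b, the inhibitor p27 (8.7 and 10), and Rbl2, a pocket protein (6.9 and 6.6), were at background on both.

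Chromatin genes were broadly detected, with 18 of 41 abundant and 38 above background on both arrays. Trim28, a corepressor recruited by zinc finger proteins, measured 2953.4 and 2842.8 units and H2az1, the histone variant H2A.Z, 1682.2 and 1460.2. Ring1, a Polycomb ubiquitin ligase, was at background (8.3 and 11.4), and Bmi1 (30.9 and 8.6) and Smarca2 (10.8 and 16.9) were above it on array 1 only. Linker histones gave little signal. None of 8 was abundant, H1f10 was the brightest with 201.7 and 282.2, and H1f2 followed with 70.0 and 68.2. H1f1 (17.2 and 25.8) exceeded background on both arrays. H1f3 (1.0 and 1.4), H1f4 (0.6 and 1.2) and H1f5 (5.7 and 6.9) were at background in wild-type cells, and the probe sets of H1f3 and H1f4 therefore check nothing about the deletions. H1f2 read 12.5 ± 1.51 (SD, n = 4) on the null arrays, a log2 difference of -2.30 (limma adjusted p = 0.00119). Its null mean lay under the filter on low signals (20.9 units), so the wild-type arrays alone carried this probe set into the test. H1f5 was higher on the null arrays, with 41.2 ± 6.47 (SD, n = 4), a log2 difference of 2.37 (limma adjusted p = 0.00221). The null arrays alone carried the H1f5 probe set past the filter.

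Imprinted genes, expressed from 1 parental allele, ranged from the brightest to the dimmest levels. Gnas, the stimulatory G protein subunit, measured 2032.9 and 2118.5, Igf2 is given above, and Peg3, a zinc finger protein expressed from the paternal allele, 839.9 and 776.8. A further 19 of the 25 were moderate. Meg3, a maternally expressed noncoding RNA, was above background on array 1 only (15.4 and 14.2), although its other probe set, brighter in wild-type but not in null cells, read 47.7 and 40.2 and would make it moderate. Usp29 (4.7 and 2.5) and Rasgrf1 (0.2 and 0.8) were at background.

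Markers of differentiated tissues were mostly low. Of 90 measured markers of liver, muscle and heart, blood and immune cells, and pancreas, gut and skin, none was abundant, 34 (37.8%) exceeded background on both arrays and 42 (46.7%) were at background on both, against 72.1% and 19.4% of all genes. Alb, serum albumin, measured 8.1 and 19.3 units, above background on array 2 only, and Fgb, a fibrinogen chain, 0.6 and 1.6. Ptprc, the CD45 antigen of blood cells, read 1.1 and 0.9, and Vil1, villin of gut epithelium, 0.7 and 1.1. Of liver markers 11 of 17 were at background, and the brightest, Cyp2e1, measured 58.5 and 79.9.

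Some tissue markers still exceeded the bacterial and yeast controls. Acta1, skeletal muscle actin, measured 297.0 and 311.2 units and Actc1, cardiac actin, 237.5 and 264.6. The Actc1 probe set carries a suffix (_f_at) of those that may be shared with other sequences or lack some probe pairs. Nppa, an atrial hormone, measured 55.3 and 71.6. Cd14, a monocyte receptor, measured 93.5 and 97.0, and Ctrb1, a pancreatic protease, 81.0 and 157.0. Another set of controls bears on these levels. The 15 antisense control probe sets, which read the strand opposite to that of a control transcript, reached 55.7 on array 1 and 49.4 on array 2, and 9 of them exceeded background on both arrays. Only 8 of the 90 tissue markers (8.89%) exceeded the highest antisense control on both arrays, against 49.1% of all genes, 84.6% of the 280 genes of growth and metabolism and 79.5% of the 39 stem cell genes.

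**Figure D5:**
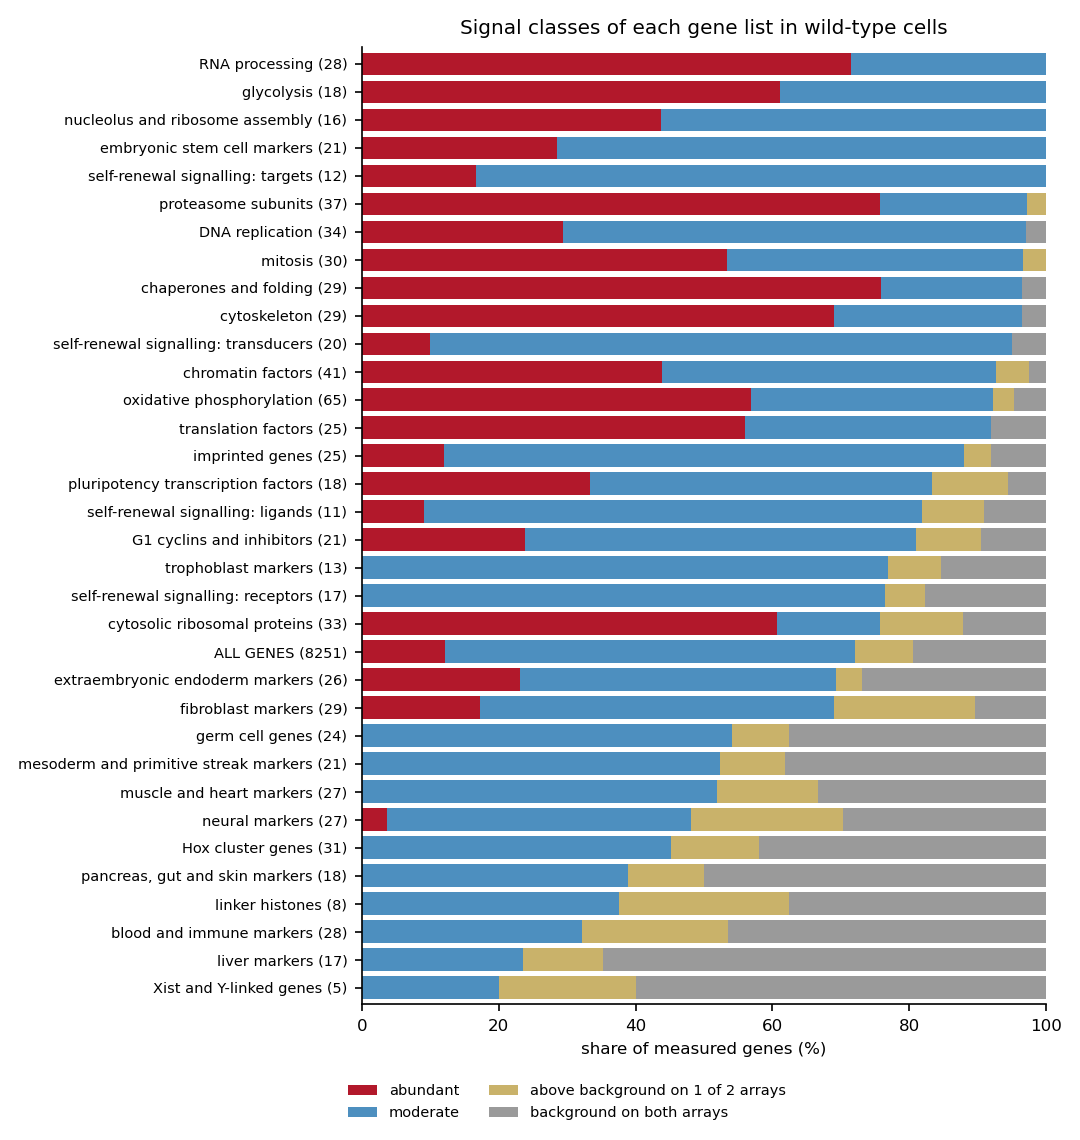
Share of measured genes (%) in each signal class for 33 gene lists and for all genes, with the number measured in brackets, ordered by the share above background on both wild-type arrays. RNA processing, glycolysis, ribosome assembly, embryonic stem cell markers and signalling targets reach 100%, all genes 72.1% and liver markers 23.5%.

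Genes of other embryonic lineages were checked for cells that might accompany the stem cells. Of 21 mesoderm and primitive streak markers none was abundant and 11 were moderate, led by Hand1 (107.3 and 129.9), Wnt3 and Flt1 (64.5 and 65.2). Meox2 was the dimmest, at 0.2 and 0.3. Of 27 neural markers 1 was abundant, Tubb3, a neuronal tubulin (519.1 and 683.9), and 8 were at background, down to Gad2 (0.8 and 0.9). The Tubb3 probe set also carries the suffix _f_at and may be shared with other sequences. Of 13 trophoblast markers none was abundant, but 10 (76.9%) exceeded background on both arrays, close to the 72.1% of all genes. Tfap2c, a factor of trophoblast and germ cells, led with 299.8 and 324.5, followed by the keratin Krt7 (101.4 and 134.0) and the receptor Fgfr2 (66.8 and 72.5). Tpbpa (18.2 and 7.9) was above background on array 1 only, and Cdx2 (5.9 and 6.1) and Elf5 (3.6 and 1.8), factors of the early trophoblast, were at background.

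Of 26 extraembryonic endoderm markers 6 (23.1%) were abundant, against 12.1% of all genes, and 18 (69.2%) exceeded background on both arrays, near the 72.1% of all genes. Apoe, an apolipoprotein, measured 1689.4 and 1776.7 units, and the simple epithelial keratins Krt18 (1629.8 and 1718.7) and Krt8 (1475.7 and 1490.8) were close to it. Krt19 and the basement membrane collagen chains Col4a1 and Col4a2 were also abundant. Of the transcription factors on the list, Gata4 (127.3 and 119.6), Sox7 (12 and 33.8) and Sox17 (17.7 and 26.3) were moderate. Gata6 (7.0 and 15.8), Foxa1 (6.5 and 8.4), Foxa2 (6.1 and 5.5) and Hnf4a (2.9 and 5.5) were at background on both arrays.

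Fibroblast markers, which feeder cells would carry, were detected about as often as genes in general. Tagln, transgelin (1264.5 and 1372.9), Sparc, a matrix glycoprotein (540.7 and 664.2), Acta2, smooth muscle actin (608.8 and 512.5), Anxa1 and Fn1 were abundant, 5 of 29, and 20 of 29 (69%) exceeded background on both arrays, against 72.1% of all genes. Col1a1 measured 147.3 and 169.5 and Col1a2 199.9 and 238.7, both moderate. Thy1 (7.2 and 5.3), Prrx1 (7.3 and 8.7) and Fap (5.1 and 4.5) were at background. The summed signal of the 29 was 4444 and 4649 in the wild-type cells and ran from 3452 to 3665 in the null cells. Members did not move together. Tagln had a mean of 1319 in wild-type and 1032 in null cells, and Acta2 561 and 345. Col1a1 had 158 and 160, and Col1a2 219 and 238. The extraembryonic endoderm markers were lower in sum as well, with 6692 and 6882 against 4740 to 5771. The embryonic stem cell markers were higher, with 7608 and 7224 against 8352 to 8471. In bulk RNA, fewer cells of a type and less RNA per cell cannot be told apart, and the part of such cells in any level given here was not tested.

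Hox genes, which pattern the body axis, were low. None of 31 was abundant, 14 were moderate and 13 at background. Hoxa4 led with 195.0 and 166.1 units, followed by Hoxb8 (93.8 and 90.0) and Hoxb6 (46.2 and 52.4), and Hoxa10 was the dimmest (0.3 and 0.9). Only 2 of the 31 exceeded the antisense controls on both arrays. These were Hoxa4 and Hoxb8, whose probe sets carry the suffix _r_at and may be shared or lack some probe pairs. Of 24 germ cell genes none was abundant. Rhox5, an X-linked homeobox gene, led with 212.8 and 294.6, then Dpep3 (185.2 and 199.7) and Tex19.1 (97.2 and 119.3), and Sycp3, of the synaptonemal complex, was the dimmest (0.1 and 0.2).

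Xist, the RNA that silences an X chromosome, read 5.4 and 9.5 units, at background on both wild-type arrays. Of the Y-linked genes, Kdm5d (2.0 and 2.1) and Uty (5.2 and 14.4) were at background, Eif2s3y (11.5 and 9.0) was above it on array 1 only and Sry (16.2 and 18.1) on both. These levels lie too close to background to order. Eif2s3y was higher on the null arrays, with 61.8 ± 14 (SD, n = 4), a log2 difference of 2.36 (limma adjusted p = 0.00217). With a wild-type mean of 10.2 units, this probe set too passed the filter on low signals through the null arrays alone. The p-value therefore comes from a probe set that entered the test because it was high there. The wild-type and null arrays differed in the signal of this Y-linked gene, and the part of this in other differences between them was not tested.

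The wild-type profile was then set against that of the H1 triple-null lines. Of the 1242 probe sets abundant in wild-type cells, 1151 (92.7%) were abundant in the 4 null arrays by the same rule, and none was at background on all 4. Of the 3293 at background, 2823 (85.7%) were at background on all null arrays as well. With limma, 31 of 7453 probe sets tested (0.416%) differed between the null average and wild type at an adjusted p of 0.05, 21 higher and 10 lower in the null cells. The filter on the mean of 6 arrays, 4 of them null, bears on that split. Of 15 probe sets at background in wild type and above it on all null arrays 5 were tested and 4 called higher, whereas of 23 in the opposite case none was tested. Among called probe sets above background on both wild-type arrays, 14 were higher and 10 lower. None of the 30 brightest genes was called with limma, with 1 of them at an unadjusted p under 0.05 against 12.7% of all probe sets tested, and of these Slc2a3 differed most, with 3005 ± 120 (SD, n = 2) in wild-type and 1938 ± 144 (SD, n = 4) in null cells, a log2 difference of -0.63 ± 0.12 (SE, limma adjusted p = 0.132).

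Of the 1242 abundant probe sets 6 (0.483%) were called, near the 0.416% of all probe sets tested. Igf2 was lower in the null cells, 567 ± 118 (SD, n = 4) against 1738 ± 34.8 (SD, n = 2), a log2 difference of -1.63 ± 0.12 (SE, limma adjusted p = 0.00788). Igfbp3, an IGF-binding protein, measured 385.2 and 362.6 in wild-type cells and a mean of 191 ± 27 in null cells (limma adjusted p = 0.0433). Col4a2 measured 344.1 and 353.3 against a mean of 194 ± 10.5 (limma adjusted p = 0.0433). The other 3 probe sets are listed with several genes, among them Sgip1 and Noct, and were higher in null cells by 0.92 to 1.03 on the log2 scale. Igf2 was called in 8 of 11 other settings or with arrays left out, and the others in 2 or 3.

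None of the 15 pluripotency factors tested with limma passed, and 3 (20%) had an unadjusted p under 0.05, against 13.1% of all genes tested. Pou5f1 differed by 0.12 ± 0.12 on the log2 scale (SE, limma adjusted p = 0.728) and Nanog by -0.09 ± 0.11 (limma adjusted p = 0.788), which does not show that they are equal. Of the 21 embryonic stem cell markers 9 (42.9%) had an unadjusted p under 0.05, and Fbxo15, an F-box protein, was called, with 170.2 and 155.6 in wild-type and 341 ± 31.1 (SD, n = 4) in null cells (limma adjusted p = 0.0465). None of the 257 tested genes of growth and metabolism was called with limma, and 25 (9.73%) had an unadjusted p under 0.05, against 13.1% of all genes tested.

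The boundaries between classes cut a continuous range. Just inside the abundant class lay Atp6v1e1, Ube2g1 and Sqstm1 and just outside it Med27, Timp1 and Rab14, all with means of 314 units. Just above background on both arrays were Vegfd (15.3 and 17.3), Hbb-bh1 (12.8 and 17.3) and Sergef (27.0 and 17.3), and just at it Tsc22d3 (5.8 and 17.2), P2rx6 (9.2 and 8.5) and Vdr (9.2 and 5.7). Olfr93, Rpl39 and Sdc3 each read 9.2 on array 1, level with its background, and were above background on array 2.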

How the data were processed

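Expression was measured with Affymetrix arrays in mouse embryonic stem cells, 2 arrays for wild type and 2 for each of 2 H1 triple-null lines. The deposited values are intensities on a linear scale, which the authors computed with the MAS5 software, per the submitters' processing notes. Its version was not stated in the labels used here. The deposited scaling was kept, detection calls were not used, and the number of arrays limits the precision. Gene names come from the annotation of the array platform, brought up to date with a RefSeq gene table (10817 of 10833 single-gene probe sets matched). Some named probe sets, marked with the suffix _f_at, _s_at, _r_at, _i_at or _g_at, may be shared with other sequences or lack some probe pairs. Those of Sox2, Igf2, Rpl41, Rps24, Tuba1c and Tubb5 are among them.

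Classes and ranks were computed in Python 3.11.15 with pandas 2.3.3, and wild type was described without a test. The contrast of the null average with wild type was fitted with limma 3.58.1 in R 4.3.3 on log2(value + 2) over all 6 arrays, for the 7453 probe sets with a mean of at least 20.9 units (the 40th percentile), with Benjamini-Hochberg adjustment. A log2 difference on this scale understates changes of dim genes. The fit was tested on simulated data. Promoters are RefSeq sequences of GRCm38.p6, matched by gene identifier, with the first listed start of a gene.

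The members and gene lists were chosen with earlier results of these data known. Genes are named by rule: the 30 brightest; the 4 pluripotency markers; the 3 brightest and the dimmest member of each list, with exceptions to its main class, and any member of a list under 12 measured genes; called genes abundant in wild type; genes beside each class boundary; and the 10 largest differences between the wild-type arrays. Genes named outside this rule were chosen after their values were seen. These are Socs3, Stat3, Lifr, Il6st, Actb, the immunoproteasome subunits, moderate pluripotency factors such as Klf4, lineage markers such as Gata4, Cdx2, Thy1, Col1a1 and Col1a2, and Fbxo15, Lyz2 and Alb. Alternatives covered the background level, the mean, the abundant level, probe set suffixes, normalization, the choice of probe set, and each array left out.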

Additional observations from a re-analysis of the deposited data

Results flagged for a closer look

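A signal appeared in control probe sets that did not set the background level of the main classes. The antisense control CreX-3 read 55.7 units on wild-type array 1 and 49.4 on array 2, a mean of 52.5, against background levels of 9.2 and 17.2 from the bacterial and yeast controls. Of the 15 antisense controls, 9 exceeded background on both arrays. Groups of 2 arrays were too small for a check of single arrays that stand apart.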

How the results depend on the processing

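With the highest antisense control as background, a setting chosen after the data were seen, 3852 probe sets were moderate, 610 above background on 1 array and 6718 at background, and the cause was not tested. With the top 5% as the abundant level, 621 probe sets were abundant, by construction. Under the other alternatives for the classes each count stayed within 1.5 times its main value. The number of lists with over 50% of members above background on both arrays was 26, and between 18 and 29 under the alternatives (26 with the brightest probe set over the wild-type arrays). With the median over the probe sets of a gene, 31 of 147 named ranks moved by over 10 percentage points, and without marked suffixes 11 of 127 did. The contrast gave 31 calls, 54 with a pseudocount of 16, 8 with no filter (more probe sets tested) and 101 with a spread that follows the signal. With an array left out it gave 7 to 13, where a lone array is assumed to vary like the others; the lowest count, 7, came without either wild-type array. Replicate numbers did not pair the arrays. The log2 difference of replicate 1 from replicate 2 within a group correlated little between groups, with r of 0.053, 0.095 and 0.073. The replicate block gave 14 calls. Array number and signal over background limit what can be told among dim genes.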
